A study of Mus musculus with 10 samples.

Results

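The cell cycle genes described here are 36 genes chosen by name for their known roles in dividing cells. They comprise 10 genes of DNA replication, 2 cyclins of the G1 phase, 23 genes of G2 phase and mitosis, and the arrest gene Cdkn1a. Expression was measured in the renal cortex of 10 mice with Affymetrix mouse expression arrays, 1 array per mouse, and each gene was read from its probe set of highest mean level. Of the 36 genes, 35 had a probe set that named them alone, and 25 of those passed a level filter set at the median of all probe sets (5.53 on the log2 scale), against 11486 of 18193 genes overall. Ccnb1 had no probe set of its own and was not analysed here. Ccne1 lay just outside the filter at a mean of 5.47 and Plk1 just inside it at 5.76.

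All 10 mice were of the FVB/N strain, were 20 weeks old and had reduced kidney mass after a 2/3 ablation and a uninephrectomy. Drug treatment began 6 weeks after the ablation, which was 4 weeks after the uninephrectomy, and lasted 6 weeks. Of these mice, 5 received 500 mg/l losartan, a blocker of the angiotensin II type 1 receptor, and 5 received 50 mg/kg aliskiren per day, an inhibitor of renin. The comparison therefore asks how the 2 drugs differ, and no untreated or unoperated group was used here. Cortex was profiled as whole tissue, so fewer dividing cells and less RNA per dividing cell cannot be told apart.

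A cell that leaves quiescence induces D-type and E-type cyclins, which drive phosphorylation of the retinoblastoma protein and release E2F factors. E2F factors then switch on the genes that load and fire the replicative helicase and supply deoxynucleotides. Genes needed for mitosis follow later, from promoters that carry CCAAT boxes bound by NF-Y and a cell cycle homology region (CHR) bound by the DREAM complex in resting cells and by MuvB complexes with B-MYB or FOXM1 in dividing cells. Cdkn1a encodes p21, an inhibitor of cyclin-dependent kinases that p53 induces and that holds cells out of the cycle. The tubular cells that make up most of the renal cortex rarely divide in health, and they can re-enter the cycle after injury.

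The replication and mitosis genes differed in the letters of their promoters, and stretches of 6 promoters are shown because they carry those letters. RefSeq windows of 300 bases, from 250 before to 50 after the start site (GRCm38.p6), were found for 30 of the 36 genes. They were searched on both strands for TTTGAA or TTTAAA (CHR), for CCAAT, and for TTTCCCGC, TTTCGCGC, TTTGCCGC or TTTGGCGC (E2F). In the stretches, written 5′ to 3′ on the gene's strand, capitals mark matches, TTCAAA and ATTGG are CHR and CCAAT letters on the opposite strand, and matches that overlap run together. Each stretch lies upstream of the start site. Cdk1 is at chr10:69352913-69353012 on the minus strand, Cdc20 at chr4:118437344-118437413 on the minus strand, Ube2c at chr2:164769829-164769928 on the plus strand, and Mki67 at chr7:135716460-135716579 on the minus strand. The replication genes are Mcm5 at chr8:75109339-75109508 on the plus strand and Mcm6 at chr1:128359706-128359835 on the minus strand.
Cdk1: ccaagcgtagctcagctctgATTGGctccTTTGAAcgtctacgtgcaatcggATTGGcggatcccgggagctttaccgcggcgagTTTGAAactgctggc
Cdc20: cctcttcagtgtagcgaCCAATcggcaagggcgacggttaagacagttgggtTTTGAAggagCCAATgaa
Ube2c: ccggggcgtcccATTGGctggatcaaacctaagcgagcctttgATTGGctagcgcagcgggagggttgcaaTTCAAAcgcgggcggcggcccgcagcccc
Mki67: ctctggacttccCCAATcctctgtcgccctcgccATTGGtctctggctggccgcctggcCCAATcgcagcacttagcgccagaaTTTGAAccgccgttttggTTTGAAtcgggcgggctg
Mcm5: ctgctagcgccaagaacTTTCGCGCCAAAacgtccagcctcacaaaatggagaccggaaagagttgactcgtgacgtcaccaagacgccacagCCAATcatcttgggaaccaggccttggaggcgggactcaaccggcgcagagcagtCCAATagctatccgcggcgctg
Mcm6: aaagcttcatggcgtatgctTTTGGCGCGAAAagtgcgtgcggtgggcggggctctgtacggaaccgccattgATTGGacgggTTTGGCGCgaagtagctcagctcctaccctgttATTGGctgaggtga

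CHR letters were present in 17 of 19 mitosis promoters (89.5%) and in 3 of 9 replication promoters (33.3%), against 27.8% of the promoters of all 27025 genes in the table. CCAAT was present in 17 of 19 mitosis promoters (89.5%) and 8 of 9 replication promoters (88.9%), against 37.9% of all promoters. E2F letters were present in 4 of 9 replication promoters (44.4%), those of Mcm3, Mcm5, Mcm6 and Mcm7, and in 1 of 19 mitosis promoters (5.26%), that of Cdk1, against 2.32% of all promoters. The Cdkn1a window held none of these letters. A match is a run of letters in a short window and does not show that a factor binds there.

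The deposited arrays carried high levels of proximal tubule markers, and 1 mouse stood apart. All 8 markers of the proximal tubule, the main tubule segment of the cortex, reached the filter in their mean. Their mean level lay between 12.53 and 13.00 in every mouse and was lowest in losartan mouse 3. All 4 genes of a medulla list also reached the filter, at a mean level of 10.42 to 11.21. These levels therefore do not tell cortex from whole kidney. Over the 11486 genes that passed the filter, the array of losartan mouse 3 had a mean correlation of 0.952 with the other arrays. The other mice had 0.981 to 0.988. Losartan mouse 3 also had the highest mean level of the tubular injury markers (10.02), the macrophage markers (9.21) and the fibroblast markers (10.26). The perirenal fat markers, of which 6 of 8 had a probe set and 2 reached the filter, stood at 10.48 in losartan mouse 3, 8.24 in aliskiren mouse 3 and 6.30 in aliskiren mouse 2, and between 4.48 and 4.75 in the other mice. The endothelial markers, all 7 above the filter, were highest in losartan mouse 3 too (8.03) and lowest in losartan mouse 4 (7.15), and their mean was lower with aliskiren by -0.24.

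Across the drug contrast, no cell cycle gene passed the test. With limma and Benjamini-Hochberg adjustment over all 11486 genes, 0 of 25 were called at an adjusted p under 0.05, as were 0% of all genes, and the smallest adjusted p among the 25 was 0.945. At an unadjusted p under 0.05, Cdk1 and Ube2c were lower with aliskiren, 2 of 25 beside 2.53% of all genes, and 0 were higher, beside 2.19%. In either direction that made 2 of 25, beside 4.72%. The values themselves were mostly lower with aliskiren: 22 of 25 genes had a lower mean, beside 53.8% of all genes, with a median difference (aliskiren minus losartan) of -0.27 on the log2 scale, beside -0.01 over all genes. The genes varied together between mice, so these signs do not count as 22 separate observations. In none of the 25 did the 2 groups of 5 mice lie apart, beside 0.914% of all genes.

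**Figure D1:**
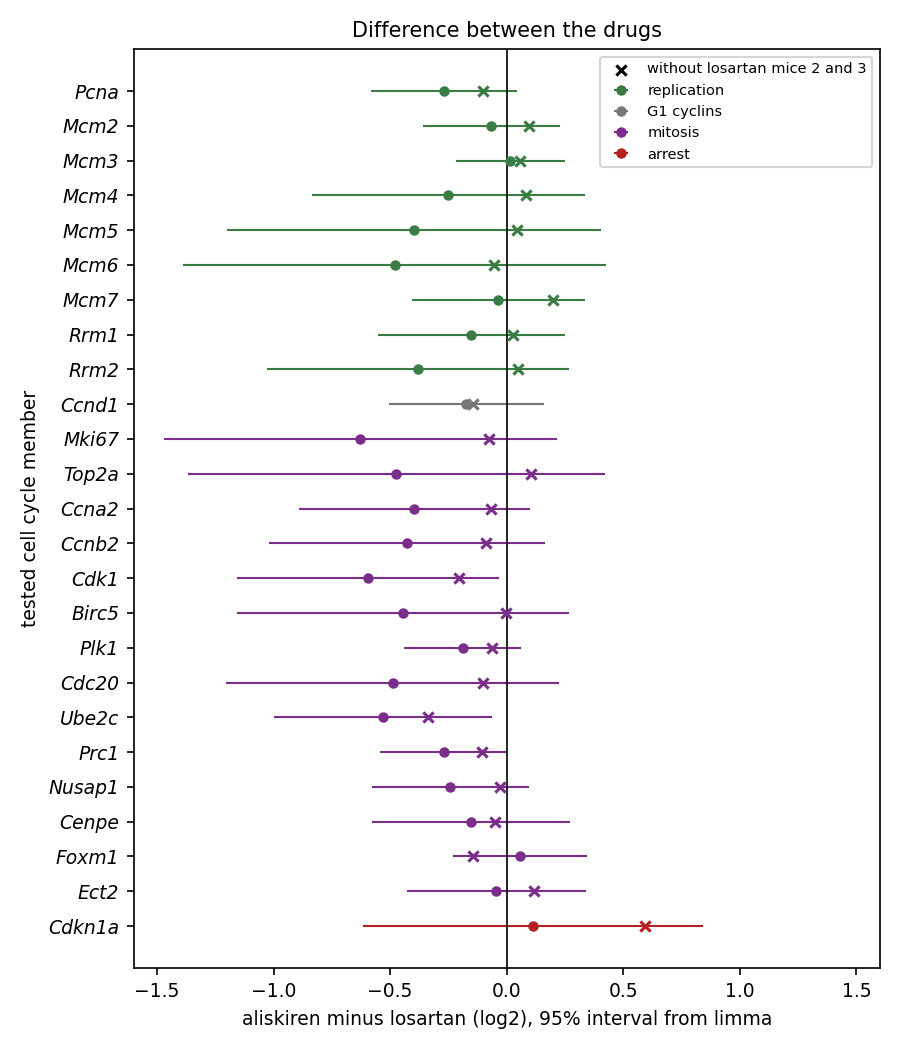
Difference in log2 expression (aliskiren minus losartan) of each of the 25 cell cycle genes that passed the level filter, as a point with its 95% interval from limma, coloured by role, n = 5 mice per drug. Crosses give the difference without losartan mice 2 and 3. Most points lie left of 0, the intervals of Cdk1 and Ube2c do not reach 0, and the crosses lie nearer to 0 for most mitosis genes.

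The precision of these arrays sets what the contrast can show. The 95% interval of the difference lay within a 2-fold change in either direction for 16 of 25 genes, beside 96.4% of all genes. The wide intervals belonged to genes that varied strongly from mouse to mouse. Over the 10 mice Mcm6 ranged over 6.06-fold, Mki67 over 5.74-fold, Mcm5 over 4.59-fold, Cdc20 over 4.56-fold and Top2a over 4.48-fold.

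The replication genes encode the sliding clamp, the helicase and the enzymes of deoxynucleotide supply. Of the 9 that passed the filter, 8 had a lower mean with aliskiren, with a median difference of -0.25, and 0 passed the test. Pcna, the clamp that tethers DNA polymerases, had log2 values of 10.64, 10.61, 11.01, 10.23 and 10.28 in losartan mice 1 to 5. It had 10.49, 10.36, 10.20, 10.20 and 10.15 in aliskiren mice 1 to 5. Losartan mouse 3 was the highest, while losartan mice 4 and 5 lay among the aliskiren mice, and the difference was -0.27 (SE 0.14, n = 5 and 5, limma adjusted p = 0.945). Without losartan mouse 3 it was -0.157.

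Mcm5 and Mcm6, subunits of the MCM2-7 helicase, spread most widely among the replication genes. Mcm5 stood at 7.31, 7.18, 7.95, 5.76 and 6.33 in losartan mice 1 to 5, and at 6.88, 6.80, 6.23, 6.28 and 6.35 in aliskiren mice 1 to 5. Mcm6 stood at 6.71, 6.45, 7.62, 5.53 and 5.65 with losartan, and at 6.46, 6.37, 5.65, 5.02 and 6.05 with aliskiren. For both genes the losartan group held a high set (mice 1, 2 and 3) and a low pair (mice 4 and 5), and it spanned most of the aliskiren range. The differences were -0.40 (SE 0.36) for Mcm5 and -0.48 (SE 0.41) for Mcm6. Without losartan mouse 3 they were -0.136 and -0.175.

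The other helicase subunits had smaller differences. Mcm4 differed by -0.25 (SE 0.27), Mcm2 by -0.07 (SE 0.13) and Mcm7 by -0.04 (SE 0.17). Mcm3 was the replication gene with a higher mean, by 0.01 (SE 0.10). Rrm2, the regulated small subunit of ribonucleotide reductase, differed by -0.38 (SE 0.29), and Rrm1, the large subunit, by -0.15 (SE 0.18). Without losartan mouse 3 the median over the 9 genes was -0.014, with 6 of 9 lower, beside 50.6% of all genes. Its injury, macrophage, fibroblast, fat and endothelial marker levels were the highest of the 10 mice. The endothelial markers stood at 7.83, 7.74, 8.03, 7.15 and 7.65 in losartan mice 1 to 5 and between 7.32 and 7.65 in the aliskiren mice. The part of these markers in the result was not tested.

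The mitosis genes act from G2 phase to the separation of the daughter cells. Of the 14 that passed the filter, 13 had a lower mean with aliskiren and the median difference was -0.41, and 0 passed the test at an adjusted p under 0.05. Without losartan mouse 2 the median was -0.217, the same as that of the replication genes. Without losartan mouse 3 it was -0.281, with 14 of 14 lower, where the median of the replication genes was -0.014. Averaged over each role, the drug difference was -0.225 for replication and -0.345 for mitosis, and these differed by 0.12 (SE 0.20), less than the SE. Mki67, which encodes the proliferation antigen Ki-67 that coats mitotic chromosomes, had values of 6.69, 8.04, 7.89, 6.62 and 6.45 in losartan mice 1 to 5. It had 7.02, 6.86, 6.62, 5.52 and 6.54 in aliskiren mice 1 to 5. Losartan mice 2 and 3 were high, aliskiren mouse 4 was low, and the other 7 mice of both groups overlapped. The means were 7.14 ± 0.76 and 6.51 ± 0.59 (SD, n = 5 each), a difference of -0.63 (SE 0.38), which is 1.55-fold more with losartan. Without losartan mouse 2 it was -0.40, and without aliskiren mouse 4 it was -0.379.

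The same mice stood out for Cdk1, the kinase that drives entry into mitosis. Its values were 6.36, 7.30, 7.20, 6.21 and 6.22 with losartan and 6.40, 6.33, 5.90, 5.59 and 6.09 with aliskiren. The difference was -0.60 (SE 0.25, limma unadjusted p = 0.0393, adjusted p = 0.945). Ube2c, the ubiquitin-conjugating enzyme of the anaphase-promoting complex, had values of 6.27, 6.78, 6.14, 5.85 and 5.81 with losartan and 5.80, 5.99, 5.60, 5.06 and 5.74 with aliskiren. Here losartan mice 1, 2 and 3 lay above every aliskiren mouse and losartan mice 4 and 5 did not, and the difference was -0.53 (SE 0.21, limma unadjusted p = 0.0299, adjusted p = 0.945). The number of the 25 genes at an unadjusted p under 0.05 moved with single mice. It was 0 without losartan mouse 2, aliskiren mouse 3 or aliskiren mouse 4, beside 6.37%, 3.26% and 3.20% of all genes. It was 1 without losartan mouse 3 or aliskiren mouse 5, beside 4.55% and 3.60%. It was 3 without aliskiren mouse 2, 6 without losartan mouse 4 and 7 without losartan mouse 5, beside 5.16%, 7% and 4.94%.

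**Figure D2:**
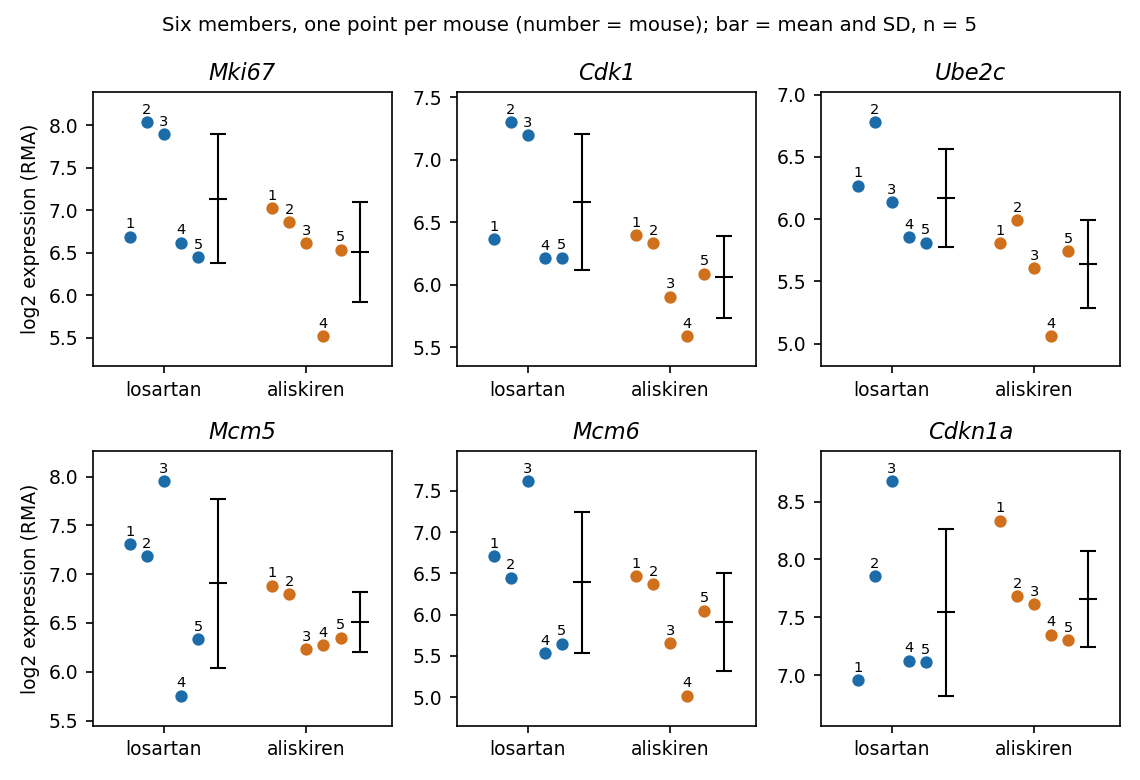
Log2 expression (RMA) of Mki67, Cdk1, Ube2c, Mcm5, Mcm6 and Cdkn1a, 1 numbered point per mouse, with the mean and SD of each drug group (n = 5). Losartan mice 2 and 3 are the highest for Mki67 and Cdk1, losartan mouse 3 alone is the highest for Mcm5, Mcm6 and Cdkn1a, and aliskiren mouse 4 is the lowest for Mki67, Cdk1, Ube2c and Mcm6.

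Top2a encodes the topoisomerase that untangles sister chromosomes. It stood at 6.59, 7.66, 7.55, 6.40 and 5.51 in losartan mice 1 to 5 and at 6.87, 6.45, 6.16, 5.50 and 6.37 in aliskiren mice 1 to 5. Losartan mice 2 and 3 were again the highest, while losartan mouse 5 was as low as aliskiren mouse 4, and the difference was -0.47 (SE 0.40). It was -0.24 without losartan mouse 2 and -0.27 without losartan mouse 3. Cdc20, the activator of the anaphase-promoting complex, stood at 7.45, 9.04, 8.08, 8.01 and 7.30 with losartan and at 7.44, 7.71, 8.04, 6.85 and 7.39 with aliskiren. Losartan mouse 2 exceeded every other mouse for Cdc20, and the difference was -0.49 (SE 0.32) with it and -0.22 without it.

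The other mitosis genes followed with differences between -0.45 and -0.04, apart from Foxm1. Birc5, the survivin subunit of the chromosomal passenger complex, differed by -0.45 (SE 0.32). The cyclins that partner Cdk1 differed by -0.43 (SE 0.27) for Ccnb2 and -0.40 (SE 0.22) for Ccna2. Genes of the spindle and its midzone were next: Prc1, which bundles midzone microtubules, differed by -0.27 (SE 0.12) and Nusap1 by -0.24 (SE 0.15). Plk1, a kinase of centrosome maturation and chromosome segregation, differed by -0.19 (SE 0.11) and Cenpe, a kinetochore motor, by -0.15 (SE 0.19). Ect2, the exchange factor that starts the cleavage furrow, differed by -0.04 (SE 0.17).

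Foxm1, a transcription factor of G2 and mitosis genes, did not share the pattern of the others. It stood at 7.44, 6.99, 6.77, 7.28 and 7.42 with losartan and at 7.18, 7.12, 7.35, 7.39 and 7.15 with aliskiren. Losartan mice 2 and 3, the highest for Mki67 and Cdk1, were the lowest for Foxm1, and the drug difference was 0.06 (SE 0.13). A further Foxm1 probe set that reached the filter correlated with this one at r = 0.38 only and gave a difference of -0.07. In that probe set losartan mouse 2 was the lowest (5.74), close to aliskiren mouse 5 (5.765) and aliskiren mouse 1 (5.77). Losartan mouse 3, the lowest in the chosen probe set, was not low there (6.03).

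The 10 genes below the filter gave values in the low range of the array and were left out of the counts. Of these, 7 had a lower mean with aliskiren and 3 a higher one, with a median difference of -0.16. Aurka, the kinase of spindle assembly, differed by -0.46 (SE 0.20) and Bub1, a kinase of the spindle checkpoint, by -0.45 (SE 0.25). Aurkb, the passenger complex kinase, differed by -0.34 (SE 0.18). Racgap1, a partner of Ect2 in cytokinesis, and Cdkn3, a phosphatase that acts on cyclin-dependent kinases, both differed by -0.18. The spindle genes Tpx2 (-0.14) and Kif11 (-0.06) and the genes Tyms (0.01), Ccne1 (0.04) and Bub1b (0.04) were nearer to 0.

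Ccnd1, the D-type cyclin that links growth signals to the cycle, was measured far above the filter and ranged over 1.78-fold. It stood at 11.88, 12.16, 11.69, 11.66 and 12.01 with losartan and at 11.33, 11.85, 12.12, 11.70 and 11.54 with aliskiren. The groups overlapped, and the difference was -0.17 (SE 0.15, 95% interval -0.51 to 0.16). Unlike Mki67 and Cdk1, Ccnd1 was not raised in losartan mouse 3, which was below the losartan mean of 11.88.

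The arrest gene Cdkn1a differed little in its means and widely between mice. It stood at 6.95, 7.86, 8.68, 7.12 and 7.11 in losartan mice 1 to 5 and at 8.33, 7.68, 7.62, 7.35 and 7.30 in aliskiren mice 1 to 5. Losartan mouse 3 and aliskiren mouse 1 were the highest, and losartan mice 1, 4 and 5 were the lowest. The means were 7.54 ± 0.72 and 7.66 ± 0.41 (SD, n = 5 each), a difference of 0.11 (SE 0.33, 95% interval -0.62 to 0.84, limma adjusted p = 0.989). Leaving out losartan mouse 3 gave 0.395, leaving out losartan mouse 1 gave -0.035 and leaving out aliskiren mouse 1 gave -0.057. The tubular injury markers were also highest in losartan mouse 3 (10.02) and aliskiren mouse 1 (8.75), as were the macrophage markers (9.21 and 8.53). Their part in the Cdkn1a values was not tested.

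The replication and mitosis genes did not peak in the same mouse. Losartan mouse 3 was the highest mouse for 7 of 9 replication genes, beside 29.2% of all genes, and for 1 of 14 mitosis genes. Losartan mouse 2 was the highest for 11 of 14 mitosis genes, beside 7.44% of all genes, and for 1 of 9 replication genes. Aliskiren mouse 4 was the lowest for 11 of 14 mitosis genes, beside 9.97% of all genes, and for 1 of 9 replication genes. These mice are named because of their values, so the counts are a description.

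**Figure D3:**
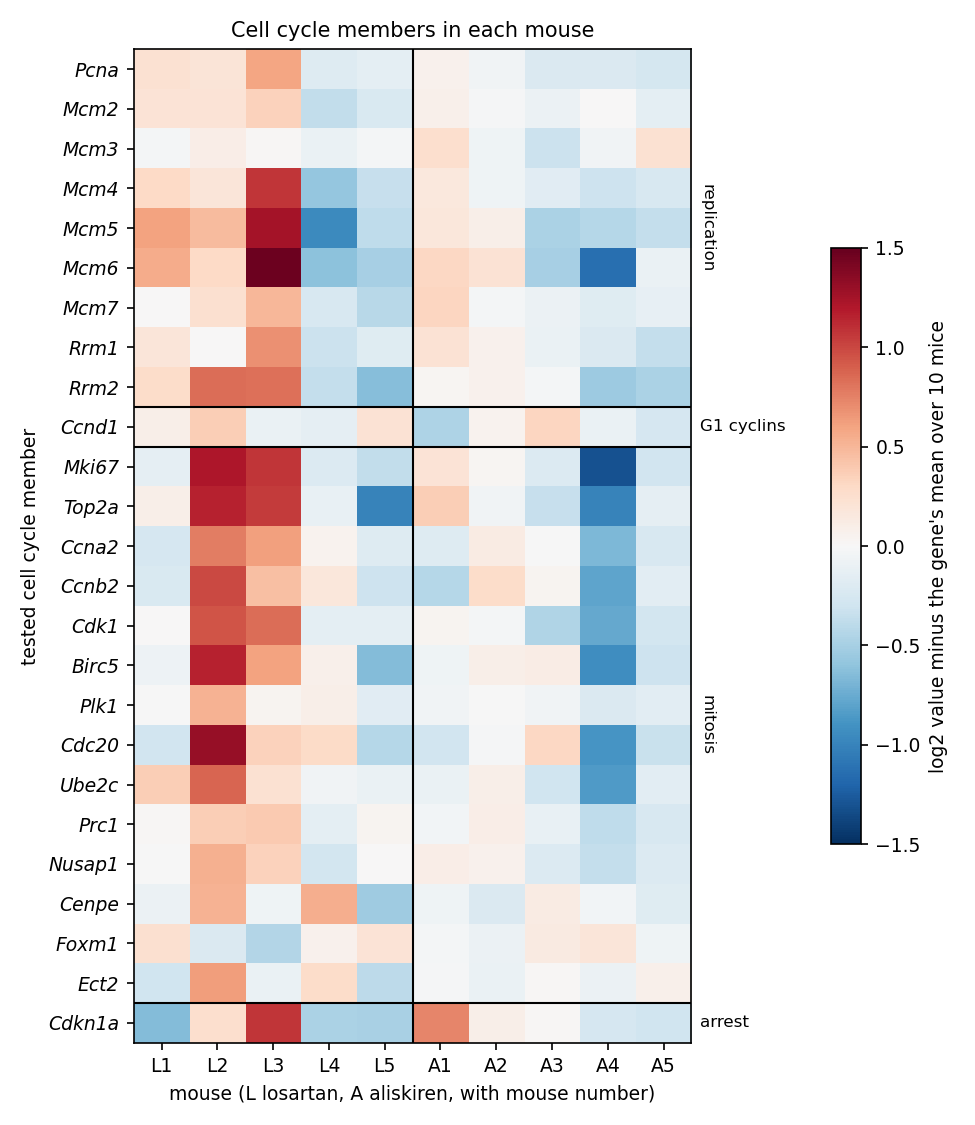
Log2 expression of the 25 cell cycle genes in each mouse (columns, L losartan and A aliskiren with the mouse number), each gene (row) centred on its mean over the 10 mice, with rows grouped by role. Red is above and blue below the gene's mean: 7 of 9 replication rows are highest in losartan mouse 3, 11 of 14 mitosis rows are highest in losartan mouse 2, and 11 of 14 are lowest in aliskiren mouse 4.

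The 2 high mice were also set directly against each other. For the replication and mitosis genes this largely restates the counts of highest mice above and is not a second result. Losartan mouse 3 exceeded losartan mouse 2 for 7 of 9 replication genes (median difference 0.39 on the log2 scale) and for 1 of 14 mitosis genes (median -0.35), beside 47.7% of all genes. Among other genes of DNA replication, 16 of 21 were higher in losartan mouse 3 (median 0.20), and among other genes of mitosis 7 of 21 were (median -0.15). The split has 1 mouse on each side and so no test. Injury markers stood at 8.34 in losartan mouse 2 and 10.02 in losartan mouse 3, macrophage markers at 7.87 and 9.21, and fat markers at 4.67 and 10.48. Their part in the split was not tested.

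Averaged over each role after centring every gene on its mean, the levels showed how the 10 mice were spread. The drug difference in these levels was -0.225 (SE 0.234) for replication and -0.345 (SE 0.213) for mitosis. The replication level was 0.257, 0.283, 0.750, -0.413 and -0.316 in losartan mice 1 to 5 and 0.179, 0.025, -0.220, -0.342 and -0.204 in aliskiren mice 1 to 5. The mitosis level was -0.047, 0.769, 0.384, 0.043 and -0.288 in losartan mice 1 to 5 and -0.043, 0.018, -0.066, -0.581 and -0.190 in aliskiren mice 1 to 5. Losartan mouse 1 was high in replication and near its gene means in mitosis, and losartan mouse 4 was low in replication and near its gene means in mitosis. Losartan mice 2 and 3 were the highest for mitosis, and without this pair 15 of 25 genes had a lower mean with aliskiren, beside 47.1% of all genes. The medians were then 0.050 for replication (2 of 9 lower) and -0.071 for mitosis (12 of 14 lower), and Cdkn1a differed by 0.593. The pair was left out because of its high values in the group with the higher means. Smaller differences were bound to follow, so no test is given. Aliskiren mouse 4, the lowest for mitosis, also moved the result: without that mouse alone the mitosis median was -0.273.

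**Figure D4:**
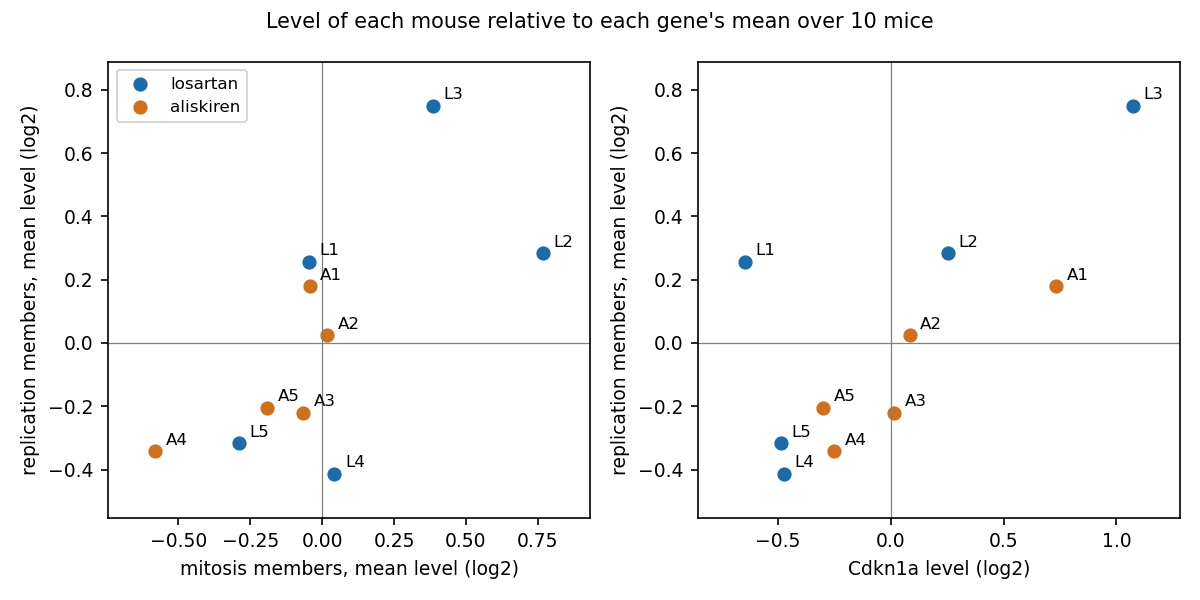
Mean centred log2 level of the 9 replication genes against that of the 14 mitosis genes (left) and against the centred Cdkn1a level (right), with 1 numbered point per mouse and colour for the drug. Losartan mouse 3 lies at the replication extreme (0.750) and losartan mouse 2 at the mitosis extreme (0.769), while aliskiren mouse 4 is lowest for mitosis (-0.581).

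Within each role most genes varied together across the 10 mice once each value was centred on its drug group. On these centred values the median Pearson correlation was 0.851 over the 36 pairs of replication genes and 0.734 over the 91 pairs of mitosis genes. It was 0.469 over the 126 pairs that join the roles. Single pairs ran from 0.129 to 0.98 within replication and from -0.884 to 0.969 within mitosis. Without losartan mice 2 and 3 these medians were 0.797, 0.508 and 0.297. The pairs share arrays and genes, so these correlations describe these mice and carry no p.

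To see how far the genes followed a marker of dividing cells once the drug was set aside, every value was centred on its drug group and correlated with Top2a over the 10 mice. Among the other 24 genes, 22 had a positive r, beside 58.8% of all 11485 genes, and the median r was 0.741 (Spearman rho 0.733), beside 0.155 over all genes. After Benjamini-Hochberg adjustment of the permutation p over all genes, 0 of 24 were called, as were 0% of all genes. At an unadjusted permutation p under 0.05, 15 of 24 were called with positive r, beside 10.3% of all genes, and Foxm1 with negative r, beside 2.94%.

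The closest were Mki67 (r = 0.931, rho = 0.976, permutation p = 0.00025, adjusted p = 0.355) and Cdk1 (r = 0.925, rho = 0.964, permutation p = 8e-05, adjusted p = 0.355). Replication genes were among the closest too, with r = 0.907 for Mcm7 and 0.903 for Rrm2, and Birc5 had 0.902. Cenpe (0.432), Mcm3 (0.415) and Ccnd1 (-0.158) followed Top2a least, and Foxm1 ran opposite at -0.828 (rho = -0.855, permutation p = 0.0193, adjusted p = 0.355). The Mcm3 and Foxm1 values hold for their chosen probe sets. A further Foxm1 probe set that reached the filter correlated with the chosen one at r = 0.38 only. A further Mcm3 probe set that reached the filter correlated with the chosen one at r = 0.388 only. It was highest in losartan mouse 3 (7.14) and lowest in losartan mouse 4 (5.45). Without the 2 mice farthest from the median Top2a level, losartan mice 2 and 3, the median r was 0.509 and 22 of 24 were still positive. Mki67 then had r = 0.823, Cdk1 0.80 and Mcm7 0.848, while Nusap1 had 0.483 where all 10 mice gave 0.792.

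Cdkn1a had mostly positive correlations with the replication and mitosis genes. With each value centred on its drug group, 22 of the other 24 genes had a positive r with Cdkn1a, beside 56% of all genes, and the median r was 0.706 (rho 0.624), beside 0.133. After adjustment 0 of 24 were called, beside 0.0348% of all genes with positive r and 0.0174% with negative r. At an unadjusted permutation p under 0.05, 11 of 24 were called with positive r, beside 19.9% of all genes, and Foxm1 with negative r (-0.841), beside 8.82%. The highest were Mcm7 (r = 0.895, rho = 0.806, permutation p = 0.00536, adjusted p = 0.085), Pcna (r = 0.825) and Cdk1 (r = 0.819). Cenpe (0.103) and Ect2 (0.210) were near 0. The Foxm1 value again holds for its chosen probe set, with which the further one correlated at r = 0.38 only.

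The mice at the extremes of Cdkn1a bore differently on the 2 roles. Without losartan mouse 3 and aliskiren mouse 1, the 2 mice farthest from the median Cdkn1a level, the median r of the replication genes was 0.351 where all mice gave 0.743, and that of the mitosis genes was 0.840 where all mice gave 0.543. Pcna had 0.422 without them and Plk1 had 0.909, where all mice gave 0.377. Without losartan mice 2 and 3 the median r over the 24 genes was 0.357, with 0.374 for replication and 0.363 for mitosis. Single mice also departed from the relation: losartan mouse 1 had the lowest Cdkn1a level (-0.647 after centring) with a replication level of 0.257, and aliskiren mouse 1 had 0.733 with a mitosis level of -0.043. Losartan mouse 3 and aliskiren mouse 1 had the highest injury and macrophage marker levels, and losartan mouse 1 did not (7.64 and 7.33). The part of those markers in the relation was not tested.

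**Figure D5:**
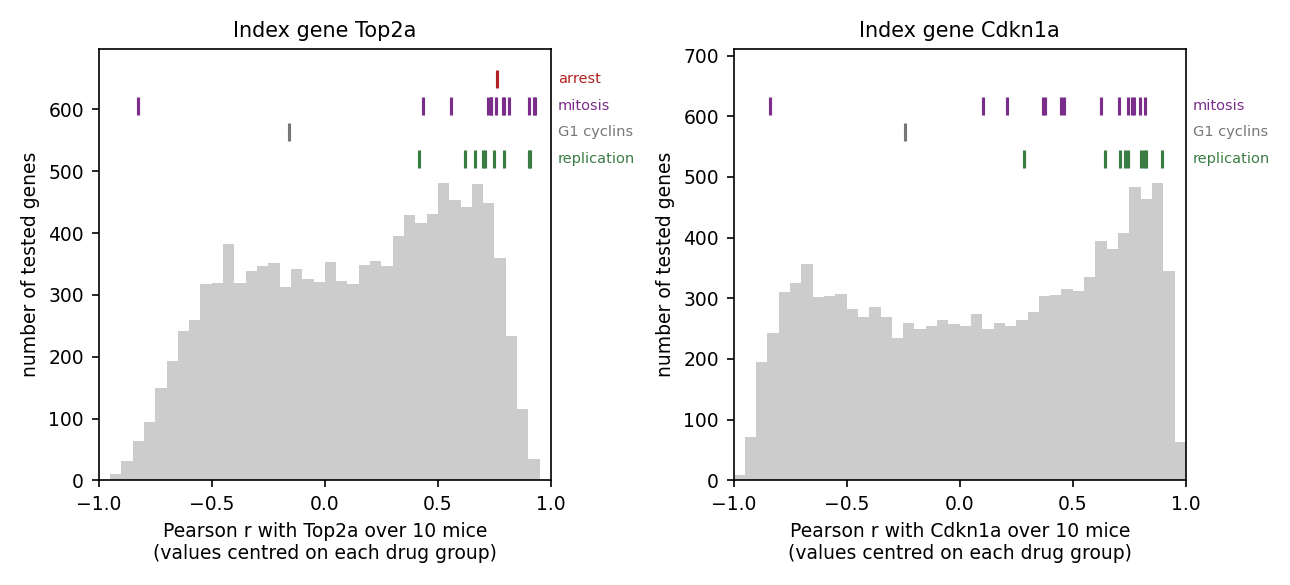
Number of tested genes (grey bars) by their Pearson correlation with Top2a (left) and Cdkn1a (right) over the 10 mice, after centring on each drug group, with a coloured tick for each cell cycle gene by role. The cell cycle ticks gather on the positive side, with medians of 0.741 and 0.706, and Foxm1, in its chosen probe set, lies at -0.828 and -0.841.

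The rest of the pathway was read from 5 lists of other genes, and 0 genes in any of them passed the test at an adjusted p under 0.05. Among other DNA replication genes 19 of 21 had a lower mean with aliskiren (median -0.08), beside 53.8% of all genes. Those of smallest p were Gins1, a subunit of the helicase complex, at -0.26 (SE 0.15), Tk1, which salvages thymidine, at -0.15 (SE 0.10), and E2f2 at -0.07 (SE 0.05). Without losartan mice 2 and 3, 9 of 21 were lower. Among other mitosis genes 16 of 21 were lower (median -0.18). Without losartan mouse 2 the median of the list was -0.068, and without losartan mice 2 and 3 it was -0.012, with 11 of 21 lower. The smallest p was that of Shcbp1, a midbody protein, at -0.52 (SE 0.17, limma unadjusted p = 0.0128, adjusted p = 0.945). Shcbp1 stood at 5.90, 6.40, 6.40, 5.75 and 6.07 with losartan and at 5.77, 5.82, 5.65, 5.05 and 5.65 with aliskiren. The Shcbp1 groups overlapped through losartan mouse 4, and Shcbp1 shared the low value in aliskiren mouse 4 with the mitosis genes above. Ckap2l differed by -0.23 (SE 0.10), and the kinesin Kif20b differed the other way, by 0.77 (SE 0.36).

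The remaining lists held regulators of G1, other kinase inhibitors and p53 targets, and their median differences had both signs. Of 14 genes of the G1 kinases and the retinoblastoma family, 10 had a lower mean with aliskiren (median -0.05), with Cdc25a, a phosphatase that activates cyclin-dependent kinases, at -0.26 (SE 0.13), Rbl2 at 0.11 (SE 0.09) and E2f5 at 0.09 (SE 0.08). Without losartan mouse 3, 7 of 14 were lower (median 0.001), beside 50.6% of all genes. Of 5 other kinase inhibitors, 2 were lower (median 0.10), with Cdkn1b at 0.17 (SE 0.10), Cdkn2b at 0.33 (SE 0.31) and Cdkn2d at -0.06 (SE 0.07). Without losartan mouse 3, 1 of 5 was lower (median 0.151). Of 17 further p53 target genes, 9 were lower (median -0.05), with Mdm2, which degrades p53, at -0.14 (SE 0.07), Perp at 0.14 (SE 0.08) and Plk3 at -0.49 (SE 0.35). The direction turned without losartan mouse 3, with 5 of 17 lower (median 0.055), and without losartan mice 2 and 3 it was 4 of 17 (median 0.109). Across mice these p53 targets followed Cdkn1a with a median r of 0.711, and 9 of 17 had an unadjusted permutation p under 0.05 with positive r, beside 19.9% of all genes. After adjustment 0 of 17 were called. The median r was 0.511 without losartan mouse 3 and aliskiren mouse 1, and 0.248 without losartan mice 2 and 3.

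Other probe sets of the same genes bore out some of these differences and not others. For 12 of the 25 genes there were 16 further probe sets that reached the filter, of which 13 correlated with the chosen one at r above 0.5 and 9 gave a difference of the same sign. Rrm2 (-0.42 beside -0.38), Ccna2 (-0.33 beside -0.40) and Cdkn1a (0.13 beside 0.11) gave like values. Mcm4 (0.05 beside -0.25), Rrm1 (0.19 beside -0.15) and Mcm3 (-0.21 beside 0.01) gave opposite signs. Of 3 further Mcm7 probe sets, 2 had the opposite sign (0.002 and 0.088 beside -0.035). Cdc20 had both signs, with -0.58 and 0.02 beside -0.49. Top2a, the index gene above, had a further probe set at -0.07 beside -0.47, which correlated with the chosen one at r = 0.603. There were 8 genes with 1 probe set only.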

How the data were processed

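Per the submitters' processing notes, the authors made the deposited log2 expression values with RMA in Affymetrix Expression Console 1.1, from 100 ng of total RNA per mouse per the labels' protocols. RMA corrects background and brings the arrays to a common distribution, so overall RNA amounts are not comparable between mice, and levels were not compared between genes. Array medians lay between 5.53 and 5.57. Genes were named from probe sets with 1 symbol in the platform annotation (34945 of 45037 without controls, 932 with several symbols and 9160 with none). The 2 drugs were compared with limma 3.58.1 in R 4.3.3, two-sided, with Benjamini-Hochberg adjustment over 11486 genes. Correlations used a two-sided permutation test within drug groups (100000 resamples), adjusted over all genes for each of 2 index genes. With 5 mice per group few arrangements exist, so this test could call few genes after adjustment. Both were tested on simulated data. The cell cycle genes, the lists and the tests were chosen with earlier results of these data known. All 36 genes, up to 3 genes of smallest p per list and the 5 other genes closest to Top2a are named. Mice that share a number are not said to be paired. An array has no sequencing depth, and precision is set by the 5 mice of each group. Scan batches are not given in the sources used here.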

Additional observations from a re-analysis of the deposited data

How the results depend on the processing

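Under every setting run, 0 genes were called between the drugs by limma. In the main fit 542 genes had an unadjusted limma p under 0.05. Of 480 differences of single cell cycle genes under other settings, Cdkn1a included, 454 kept their direction and their side of the threshold and 26 turned, 12 of them with 1 mouse left out. Leaving out each mouse in turn gave medians of -0.352 to -0.014 for replication and -0.525 to -0.217 for mitosis, and ranges of -0.165 to 0.011 for Mcm2, -0.045 to 0.097 for Mcm3, -0.144 to 0.085 for Mcm7, -0.045 to 0.122 for Foxm1, -0.147 to 0.106 for Ect2 and -0.057 to 0.395 for Cdkn1a. Leaving out losartan mice 2 and 3 together, chosen after seeing the data, gave a mitosis median of -0.071 and turned Mcm2 (0.096), Mcm4 (0.084), Mcm5 (0.044), Mcm7 (0.199), Rrm1 (0.026), Rrm2 (0.050), Top2a (0.104), Ect2 (0.116) and Foxm1 (-0.143). The mean of all probe sets turned Mcm3 (-0.192) and Mcm7 (0.003), and array weights turned Mcm3 (-0.041), Mcm7 (0.007) and Foxm1 (-0.023). With no centring on the drug, 1 cell cycle gene was called with positive r to Cdkn1a at an adjusted permutation p under 0.05, and 1 with negative r. Beside them stood 8.29% and 2.87% of all genes. With the mean of probe sets, 4 were called with positive r, beside 4.32%, and 0 with negative r, beside 1.11%. The cause was not tested. With the mouse number as a block, 0 genes were called, the medians were -0.250 and -0.412 and Cdkn1a differed by 0.113, so no call changed. Same-numbered mice had correlations of -0.229 to 0.42, 2 of 5 mice correlated best with their own number, and they share a number only. With 5 arrays per group, genes below the filter have little signal over background. The limma interval of the difference lay within a 2-fold change in either direction for 9 of the 10 cell cycle genes below it. Among the cell cycle genes that passed the filter, this held for 16 of 25.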

Other observations

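The 5 genes outside the cell cycle set that lay closest to Top2a over the 10 mice, after centring on the drug, were Zfp729a (r = 0.966), Mad2l1 (0.945), Rest (0.942), Mob3a (0.939) and Tmem263 (0.932). Each had an adjusted permutation p of 0.355. Mad2l1 encodes a protein of the spindle checkpoint and Rest a transcriptional repressor. Without losartan mice 2 and 3 their r stood at 0.992, 0.883, 0.899, 0.958 and 0.919. With no centring on the drug, Zfp729a had r = 0.571 and Mad2l1 0.938.

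Kif20b was the mitosis gene with the largest positive difference between the drugs among those named. It stood at 7.14, 7.08, 6.16, 7.57 and 6.79 in losartan mice 1 to 5 and at 8.35, 7.11, 6.87, 8.58 and 7.68 in aliskiren mice 1 to 5. Aliskiren mouse 4, the lowest mouse for most mitosis genes, was the highest for Kif20b, which correlated with Top2a at r = -0.235.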
